A study of Mus musculus with 4 samples.

Results

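Spp1-low, Ccl2-low reticular cells were marrow stromal cells rich in Cxcl12 and Adipoq that carried little Spp1 and little Ccl2 or Ccl7. Among 9795 cells in 4 single-cell libraries, 1998 (20.4%) met the rule. A cell was chosen when Cxcl12 made up at least 0.5% of its UMIs (unique molecular identifiers, which count captured RNA molecules), when it had at least 2 Adipoq UMIs, at most 1 Wif1 UMI and no Ptprc UMI, when Bglap and Bglap2 together were under 1%, Spp1 under 0.2%, and Ccl2 and Ccl7 together under 0.05% of its UMIs. These 9 genes chose the cells, so their values are given as a description and support nothing. All cells came from Cxcl12-iCreER; R26R(tdTomato/+) mice that received tamoxifen 7 days before the marrow of the right femur was ablated mechanically, and were sorted for tdTomato 7 days after that operation. By the study's methods ABL is the operated femur and CONT the unoperated left femur, and each replicate has 1 library of each, and both groups carry the transgene and had the tamoxifen, in mice that were operated. The recombinase is driven by a bacterial artificial chromosome carrying Cxcl12 sequences, so the reporter marks cells by their Cxcl12 activity before the injury. Replicate 1 was made with 10x Chromium v2 chemistry from pooled mice and replicate 2 with v3, so replicate and chemistry cannot be told apart. The 4 libraries are called CONT1, ABL1, CONT2 and ABL2 by group and replicate, and lists of 4 values follow that order. The ages of the mice were not given for these libraries in the sources used here.

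Reticular cells are stromal cells whose long processes lie along the sinusoids of the marrow. They are the main source there of CXCL12, a chemokine that retains hematopoietic stem cells, and of stem cell factor (Kitl), and they carry the leptin receptor (Lepr) and the adipocyte hormone gene Adipoq. They can give rise to marrow adipocytes and, after injury, to bone-forming cells, for which Spp1 (osteopontin) and Col1a1 are widely used transcripts.

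Total depth was 44784072 UMIs for CONT1, 22889380 for ABL1, 40486876 for CONT2 and 41536563 for ABL2. The rule found 568 cells in CONT1, 235 in ABL1, 1055 in CONT2 and 140 in ABL2. Their median depths were 4479, 6396, 12309 and 7109 UMIs per cell in the same order, and their summed UMIs were 2888090, 1731705, 13587055 and 1085930. The values of ABL2 therefore rest on the fewest cells and on the fewest UMIs. No chosen cell shared a barcode with a chosen cell of another library, and among all cells 5 barcodes were shared by the replicate 1 libraries and 1 by the replicate 2 libraries.

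Xist and Gm42418 set libraries apart before any result. Xist, the transcript of the inactive X chromosome in female cells, had a UMI in 49.6% of the chosen cells of CONT1, in 81.7% of ABL1, in 79.9% of CONT2 and in 0 of the 140 cells of ABL2. With 3 counts taken as the limit for a count of 0, 0 of 140 cells allows a share of up to 2.14% with a UMI. The CONT and ABL libraries of replicate 2 thus go against having come from both femurs of the same mice, and those of replicate 1 did not hold the same mixture of sexes. Gm42418, a locus that overlaps ribosomal RNA sequence, took 1194 counts per 1000000 UMIs (CPM) in CONT1, 2606 in ABL1, 146353 in CONT2 and 58798 in ABL2. CPM of all other genes are lowered by that share in replicate 2. Leaving Gm42418 out changed the ABL against CONT calls given below from 78 higher and 26 lower genes to 75 and 22.

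Both reticular markers that the rule did not use were present. Lepr was at 1203 CPM in CONT1, 721 in ABL1, 2229 in CONT2 and 706 in ABL2. After thinning every cell to 2700 UMIs, Lepr had a UMI in 92.1%, 82.1%, 97.9% and 82.9% of the chosen cells in that order. In the cells with a Ptprc UMI and no Adipoq UMI, which are hematopoietic and should lack Lepr, these shares were 14.7%, 10.5%, 3.57% and 0.364%, at median depths of 6066, 6527, 10080 and 10758 UMIs. Kitl was at 708, 571, 1748 and 1379 CPM and had a thinned UMI in 82.6%, 76.6%, 95% and 88.6% of the chosen cells, against 5.60%, 3.61%, 3.57% and 1.64% of the hematopoietic cells. The tdTomato reporter (tdT-WPRE_trans) had a thinned UMI in 95.4%, 94.0%, 85.1% and 90% of the chosen cells (97.9%, 97.4%, 97.7% and 94.3% unthinned), against 16.0%, 22.3%, 10.7% and 48.8% of the hematopoietic cells. Its level was 1950, 1600, 1064 and 1149 CPM in the chosen cells and 447, 536, 923 and 887 CPM in empty droplets. The name "reticular" thus met its markers in all 4 libraries.

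Whether the cells were resting is not established by these data. Mki67, a protein of dividing cells, was at 11.1 CPM in CONT1, 7.51 in ABL1, 7.73 in CONT2 and 21.2 in ABL2, below its level in empty droplets of the same library (97.5, 70.8, 123 and 82.0 CPM). Its thinned share of cells with a UMI was 3.52%, 2.98%, 0.474% and 0.714%, against 10.9%, 8.85%, 18.9% and 16.6% of the hematopoietic cells. Transcripts of division were therefore scarce. By contrast, Fos, an immediate early gene that rises within minutes of a stimulus, was at 3233 CPM in CONT1, 2434 in ABL1, 3626 in CONT2 and 1823 in ABL2. Immediate early transcripts were thus among the abundant ones, in cells digested with enzymes at 37 °C before sorting.

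RNA of other cell types was present in unequal amounts. The 17 hematopoietic markers summed to 45090 CPM in the chosen cells of CONT1, 16040 in ABL1, 1725 in CONT2 and 4910 in ABL2, against 257200, 160300, 44120 and 20680 CPM in empty droplets. The most abundant by mean over the libraries was Hbb-bs, a hemoglobin chain, although S100a8 (4308 CPM) exceeded it (3145 CPM) in ABL1, and none of the 17 was at 0 in all libraries. In ABL2, 1 cell held 95% of the Hbb-bs UMIs of all chosen cells and 1 cell held 91.7% of those of S100a8, a neutrophil transcript. The 11 endothelial markers summed to 84.1, 71.6, 13.8 and 52.5 CPM, with Cldn5 the most abundant by mean over the libraries. Tek was at 0 in ABL1, CONT2 and ABL2, Gpihbp1 in CONT2 and ABL2, and Stab2 in ABL2. Of the 8 mature osteoblast markers, Ibsp alone made 3470 of 3663 CPM in CONT1 and 6498 of 6742 CPM in CONT2, and Sost was at 0.

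The share of the reticular gate that the chosen cells made up did not move one way between the conditions. They were 53.9% (exact 95% interval 50.8 to 56.9) of the 1054 cells that passed the Cxcl12, Adipoq, Wif1, Ptprc and Bglap gates in CONT1, and 64.6% (62.2 to 66.9) of 1634 in CONT2. In ABL they were 68.9% (63.7 to 73.8) of 341 in replicate 1 and 54.7% (48.4 to 60.9) of 256 in replicate 2. ABL was higher in replicate 1 and lower in replicate 2, with intervals that did not overlap in either. The replicate 2 direction depended on the limits: with both limits doubled the shares were 66.2% in CONT1, 77.7% in ABL1, 75.1% (72.9 to 77.2) in CONT2 and 76.2% (70.5 to 81.3) in ABL2. Of all cells they were 16.6%, 16.3%, 44.0% and 5.51% in CONT1, ABL1, CONT2 and ABL2, a denominator set by how many other cells passed the sort. Intervals cover counting error only, and with 2 libraries per condition no exact test can reach 0.05.

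The rule's own transcripts describe how the cells sat within the limits. Cxcl12 was at a median of 1.74%, 1.68%, 1.66% and 1.68% of UMIs in CONT1, ABL1, CONT2 and ABL2. Spp1 was at 0 in 77.8% and 84.6% of the CONT cells and in 19.6% and 27.9% of the ABL cells. Ccl2 and Ccl7 were both at 0 in 56.3%, 54.9%, 51.8% and 70.7% of cells. In CONT2, the 59 cells just inside the chemokine limit (0.04 to 0.05%) had 2404 CPM of Lepr and the 44 just outside (0.05 to 0.06%) had 2171 CPM. In ABL2, the 15 cells just inside the Spp1 limit (0.15 to 0.2%) had 1270 CPM of Col1a1 and the 15 just outside (0.2 to 0.25%) had 1817 CPM. Neither order held in every library. In CONT1, Lepr was at 1145 CPM just inside and 1329 CPM just outside the chemokine limit. In ABL1, Col1a1 was at 3212 CPM in 7 cells just inside and 2902 CPM in 2 cells just outside the Spp1 limit.

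Igfbp5, Gpx3 and Apoe, which code for secreted proteins, were among the most abundant transcripts. Outside mitochondrial and ribosomal protein genes and the rule gene Cxcl12, the transcripts ranking highest by mean level after Gm42418 and the nuclear RNA Malat1 were Igfbp5, Tmsb4x, Fth1, H2-D1, Hbb-bs, Gpx3 and Apoe. Igfbp5, a binding protein for insulin-like growth factors, was at 6716 CPM in CONT1, 5440 in ABL1, 12365 in CONT2 and 5694 in ABL2. Gpx3, a secreted glutathione peroxidase, was at 6894, 6629, 3460 and 3828 CPM, and Apoe, the lipid carrier, at 4249, 5107, 3302 and 6074 CPM in the same order. Hbb-bs was at 14974, 3146, 889 and 2586 CPM, and in empty droplets at 78882, 44157, 14906 and 4311 CPM, above the chosen cells in every library. Igfbp5 was the reverse, at 1585, 1276, 6779 and 967 CPM in empty droplets.

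No transcription factor of reticular identity passed the ABL against CONT test, which is no evidence that they did not differ. Ebf1, which with Ebf3 keeps the marrow cavity free of bone, was at 743 and 753 CPM in CONT and 739 and 817 CPM in ABL (replicates 1 and 2). Ebf3 was at 346 and 622 CPM in CONT and 352 and 588 CPM in ABL. Foxc1, a factor that reticular cells need to maintain the niche, was at 366 and 539 CPM in CONT and 332 and 350 CPM in ABL. For Ebf1 and Ebf3 the groups overlapped. None of the 10 factors tested passed the edgeR test described next (1 had an unadjusted p under 0.05, and DESeq2 called 0), and their median log2 change was -0.08.

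The main question of the study design, what marrow injury did to these cells, was addressed by summing the UMIs of the chosen cells in each library and comparing ABL with CONT within replicates, with edgeR's quasi-likelihood test and Benjamini-Hochberg adjustment over 10357 genes. After ablation the summed UMIs of these cells held more of 7 matrix genes, Fn1 and Olfml3 among them. Igf2, H19 and Mest, imprinted growth genes, and 4 interferon-stimulated genes were higher too, and the stress genes Atf3, Hspa1a and Hspa1b were lower. All 25 gene lists were chosen with earlier results of these data known. A count within any of them is therefore a description and no independent evidence. Several matrix rises changed when free RNA, measured in empty droplets, was subtracted. At the larger share described below, the calls for Col3a1 and Timp1 were lost and the signs of Col6a3 and Mgp turned. For Fn1, 0 UMIs were then left in ABL2. At an adjusted p under 0.05, 78 genes (0.753%) were higher and 26 (0.251%) lower in ABL, and 982 genes had an unadjusted p under 0.05. All 104 called genes moved the same way in both replicates, which a blocked test with 2 pairs largely requires. The calls rest on the pairing of libraries by replicate, with 1 residual degree of freedom: without the replicate block 0 genes passed (225 had an unadjusted p under 0.05), and DESeq2 with the block called 45 higher and 13 lower. In replicate 2 the Xist counts given above go against a pairing by animal. The p-values set the ABL to CONT difference against how far the 2 within-replicate differences disagree, with that spread partly shared over genes. With libraries of pooled or unspecified mice, they cannot separate animals from libraries.

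**Figure D1:**
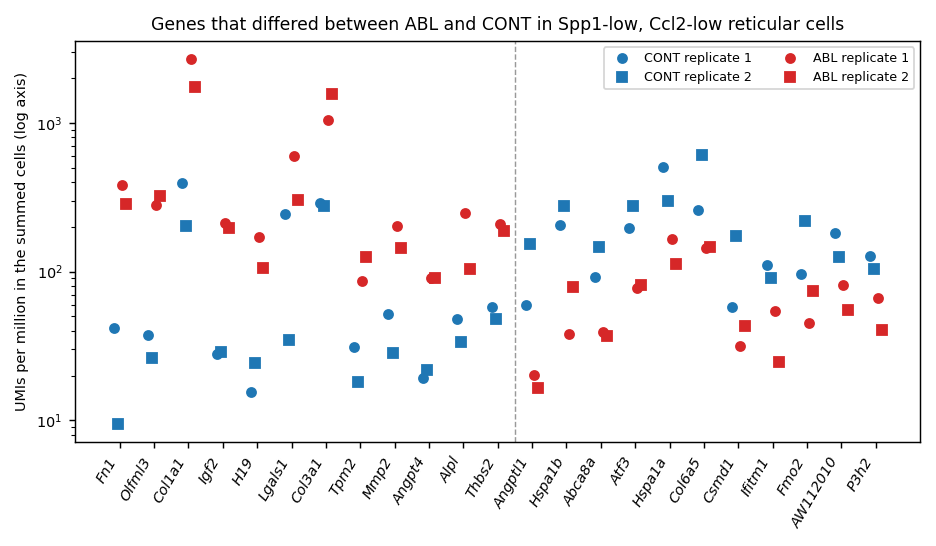
Levels of the 23 genes named for ABL against CONT, as CPM in the summed cells of each library (log axis); circles are replicate 1, squares replicate 2, blue CONT and red ABL. Left of the dashed line both ABL libraries lie above both CONT libraries, and right of it below.

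Fn1, which codes for fibronectin, a matrix protein laid down early in wound repair, rose most among the genes with at least 50 CPM on average. It was at 41.9 CPM in CONT1 and 9.42 in CONT2, and at 382 CPM in ABL1 and 287 in ABL2. The fitted log2 fold change was 3.96 (SE 0.40, edgeR adjusted p = 4.9e-05). Fn1 had a UMI in 15.5% and 7.58% of CONT cells and in 76.6% and 58.6% of ABL cells. Thinned to 2700 UMIs, the shares were 10.0% and 2.09% in CONT and 54.0% and 37.1% in ABL, against 16.8% and 7.14% of the CONT and 26.9% and 21.9% of the ABL hematopoietic cells. Empty droplets of the ABL libraries held 730 and 2929 CPM, above the chosen cells, and the part of free RNA in the rise was not tested beyond the subtraction described here. With free RNA subtracted at the highest share that left no abundant free transcript below 0 (8.98%, 6.26%, 0.666% and 0.791% of UMIs in CONT1, ABL1, CONT2 and ABL2), the log2 fold change was 4.15. At the larger share estimated from hematopoietic transcripts (17.5%, 10.0%, 3.91% and 23.7%), 0 of the 312 Fn1 UMIs of ABL2 and 535 of the 661 of ABL1 were left, so that the fitted log2 fold change of 2.68 (edgeR adjusted p = 0.0063) rested on replicate 1. The 23.7% of ABL2 is an estimate that counts the hematopoietic UMIs of the single cells named above as free RNA.

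Olfml3, which codes for a secreted olfactomedin-family matrix protein, gave a rise that exceeded the droplet level. It was at 37.7 and 26.3 CPM in CONT and at 279 and 322 CPM in ABL (replicates 1 and 2), while empty droplets of ABL held 173 and 182 CPM. Its log2 fold change was 3.17 (SE 0.31, edgeR adjusted p = 3.4e-05). It had a UMI in 13.9% and 19% of CONT cells and in 58.3% and 72.1% of ABL cells. Of the 78 genes higher in ABL, 36 were above the empty-droplet level in both ABL libraries and 25 in neither.

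Igf2 and H19 are neighbours on chromosome 7 and are imprinted, with Igf2 read from the paternal and H19 from the maternal copy. Igf2 (chr7:142650766-142666816, minus strand) codes for insulin-like growth factor 2 and H19 (chr7:142575529-142578143, minus strand) for a non-coding RNA. Igf2 was at 28.1 and 28.6 CPM in CONT and at 214 and 197 CPM in ABL, and H19 at 15.6 and 24.2 CPM in CONT and at 170 and 106 CPM in ABL. Both groups were apart, and the log2 fold changes were 2.76 (SE 0.27, edgeR adjusted p = 3.4e-05) for Igf2 and 2.64 (SE 0.31, edgeR adjusted p = 0.00022) for H19. Empty droplets of ABL held 54.95 and 54.1 CPM of Igf2, below the chosen cells. Of H19 they held 94.0 and 181 CPM, above the chosen cells in ABL2. Igf2 and H19 differed in the share of cells with a UMI, which was not thinned and can include free RNA. Igf2 had a UMI in 43.4% and 38.6% of ABL cells, H19 in 14.5% and 12.9%, and 1 cell held 22% and 27% of the H19 UMIs of ABL replicates 1 and 2. Over cells with a Y-linked and no Xist UMI alone (133, 25, 181 and 85 cells in CONT1, ABL1, CONT2 and ABL2), the log2 fold change was 0.88 for Igf2 (edgeR adjusted p = 0.72) and 1.27 for H19 (edgeR adjusted p = 0.37), so neither call held in that smaller set. Of the 10 imprinted growth genes tested, all had a positive log2 fold change and 3 passed (Igf2, H19 and Mest, at 4.16 and 3.68 CPM in CONT and 34.7 and 22.1 CPM in ABL), with a median of 0.40. Over all genes 48.1% were positive, 0.753% were called higher and the median was -0.02. Empty droplets of ABL held 31.3 and 64.0 CPM of Mest, above the chosen cells in ABL2.

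**Figure D2:**
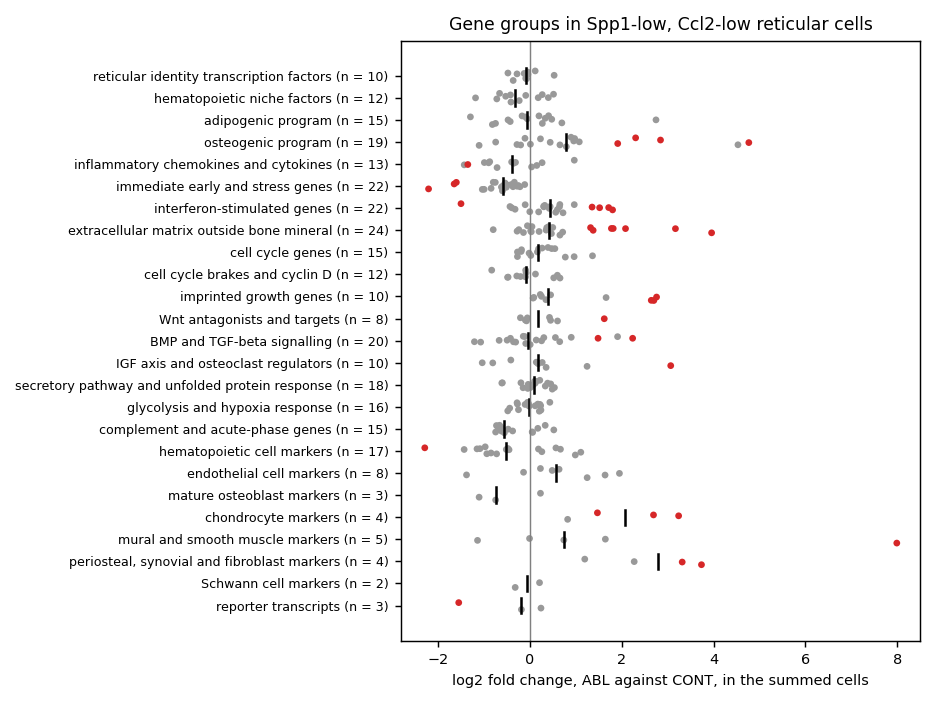
Log2 fold change of ABL against CONT for the tested genes of 25 gene groups, 1 point per gene, red where the edgeR adjusted p was under 0.05, with a black bar at the group median. The 22 immediate early and stress genes all lie below 0 and the 10 imprinted growth genes all above it.

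Matrix genes outside bone mineral were higher in 7 of 24 tested and lower in 0, with a median log2 fold change of 0.42, beside 0.753% and 0.251% of all genes and a median of -0.02. Besides Fn1 and Olfml3 these were Col3a1, Col6a3, Thbs2, Timp1 and Mgp. This list too was chosen with earlier results of these data known, so its count is a description. Col3a1, a fibrillar collagen of granulation tissue, was at 290 and 276 CPM in CONT and at 1043 and 1567 CPM in ABL. Thbs2, a thrombospondin, was at 57.5 and 48.3 CPM in CONT and at 209 and 188 CPM in ABL, above empty droplets (104 and 142 CPM). Basement membrane collagens did not pass the test: Col4a1 was at 723 and 1003 CPM in CONT and 709 and 796 CPM in ABL. With free RNA subtracted at the larger share estimated from hematopoietic transcripts, the calls for Col3a1 (log2 fold change 0.98, edgeR adjusted p = 0.41) and Timp1 (0.28, edgeR adjusted p = 0.91) were lost and the signs of Col6a3 (-0.39, edgeR adjusted p = 0.94) and Mgp (-0.34, edgeR adjusted p = 0.95) turned. Mmp2, a gelatinase that digests matrix, was named outside the list at 52.3 and 28.6 CPM in CONT and 202 and 144 CPM in ABL.

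Of 19 osteogenic genes tested, 4 were higher and 0 lower beside 0.753% and 0.251% of all genes (median log2 fold change 0.79 against -0.02), and several of them were picked by the study on these samples, so the count is not independent evidence of direction. Col1a1, the main collagen of bone, was at 392 and 205 CPM in CONT and at 2697 and 1752 CPM in ABL (log2 fold change 2.85, SE 0.47, edgeR adjusted p = 0.0043), with empty droplets of ABL at 5289 and 11620 CPM. Under the larger subtraction of free RNA estimated from hematopoietic transcripts its log2 fold change was -0.87 (edgeR adjusted p = 0.94), and under the subtraction at the limit 2.77. Alpl, an alkaline phosphatase of early osteoblasts, was at 47.8 and 33.6 CPM in CONT and at 247 and 105 CPM in ABL, where empty droplets held 217 and 219 CPM, and the larger subtraction left 58 of its 114 UMIs in ABL2. Sp7, the osteoblast transcription factor osterix, was at 10.7 and 3.75 CPM in CONT and at 50.2 and 23.0 CPM in ABL, above empty droplets in both ABL libraries (41.9 and 18.3 CPM). In the cells with a Y-linked and no Xist UMI the call for Sp7 was lost (log2 fold change 1.61, edgeR adjusted p = 0.56). Sp7 had a UMI in 4.58% and 4.55% of CONT cells and in 23.8% and 17.9% of ABL cells. Postn, a periosteal matrix protein, was at 2.08 and 2.87 CPM in CONT and 47.4 and 90.3 CPM in ABL, below the empty droplets of ABL (166 and 324 CPM), with 34.7% of its UMIs in ABL2 from 1 cell. Runx2, the master factor of the lineage, did not pass, at 150 and 264 CPM in CONT and 197 and 174 CPM in ABL.

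Markers of other skeletal and vessel cells moved with these genes. Of 8 chondrocyte markers 4 were tested and 3 higher (Col2a1, Col9a2 and Comp, of which the call for Comp was lost under the larger subtraction), and their sum went from 87.3 and 89.3 CPM in CONT to 334 and 219 CPM in ABL, where empty droplets held 1601 and 5942 CPM. Of 10 periosteal, synovial and fibroblast markers 4 were tested and 2 higher (Prg4 and Aspn), with sums of 161 and 72.5 CPM in CONT and 286 and 355 CPM in ABL, and Gsn was the most abundant of them in both conditions (136 and 62.7 CPM in CONT, 248 and 207 CPM in ABL). Of 7 mural markers 5 were tested and Acta2 was higher, and the 7 summed to 170 and 145 CPM in CONT and 176 and 359 CPM in ABL, with Notch3 the most abundant by mean and Cnn1 at 0. For Acta2 69.1% of its UMIs in ABL2 lay in 1 of the 140 cells. Of the hematopoietic markers 1 of 17 was lower in ABL (Elane, a neutrophil granule protease) and 0 higher. None of 8 endothelial (2 at an unadjusted p under 0.05, 0 by DESeq2), 3 mature osteoblast (1 and 1) and 2 Schwann cell markers tested (0 and 0) was called by edgeR. Of all genes 0.753% were called higher and 0.251% lower. The part of these cells or of their free RNA in the matrix and osteogenic changes was not tested.

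Interferon-stimulated genes were higher in 4 of 22 tested and lower in 1 (median log2 fold change 0.43), beside 0.753% and 0.251% of all genes (median -0.02). Isg15, a ubiquitin-like protein induced by interferon, was at 75.8 and 63.4 CPM in CONT and at 180 and 249 CPM in ABL, above empty droplets (65.3 and 75.6 CPM). Ifit1, a sensor of viral RNA, was at 7.62 and 11.8 CPM in CONT and 30.0 and 37.8 CPM in ABL. Ifit3 and Irf7 were the other risers, while Ifitm1 fell, from 111 and 91.0 CPM to 54.3 and 24.9 CPM. Gbp2, an interferon-induced GTPase, did not pass, at 56.8 and 88.1 CPM in CONT and 76.8 and 113 CPM in ABL.

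Of 20 BMP and TGF-beta ligands, receptors, targets and inhibitors tested, 2 were higher and 0 lower, 10 had a positive log2 fold change, and the median was -0.04, beside 0.753% higher, 0.251% lower and a median of -0.02 over all genes. Id1, a direct BMP target, was at 14.2 and 6.99 CPM in CONT and 41.0 and 57.1 CPM in ABL, and Smad6, an inhibitor that the pathway induces, at 18 and 16.9 CPM in CONT and 65.8 and 41.4 CPM in ABL. Empty droplets of ABL held 56.6 and 68.5 CPM of Id1, above the chosen cells, and 27.4 and 14.4 CPM of Smad6, below them. The ligand Bmp4 did not pass, at 209 and 167 CPM in CONT and 235 and 149 CPM in ABL, so its groups overlapped. Among 8 Wnt genes tested 1 rose, the secreted antagonist Sfrp2, from 73.4 and 27.7 CPM to 434 and 45.1 CPM. That rise was mainly in replicate 1.

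Atf3, Hspa1a and Hspa1b, all stress-induced, were lower in ABL. They were the 3 that passed among 22 immediate early and stress genes tested, beside 0.251% of all genes. All 22 had a negative log2 fold change with a median of -0.58, while over all genes 48.1% were positive and the median was -0.02. Hspa1b, an inducible Hsp70 chaperone, was at 205 and 278 CPM in CONT and at 38.1 and 79.2 CPM in ABL, and fell by 2.20 on the log2 scale (SE 0.30, edgeR adjusted p = 0.001). Hspa1a, its near-identical neighbour, was at 507 and 298 CPM in CONT and 166 and 113 CPM in ABL, and fell by 1.60 (SE 0.31, edgeR adjusted p = 0.016). The copies can share reads, so how UMIs were divided between them is uncertain. Atf3, a stress-induced transcription factor, was at 198 and 276 CPM in CONT and at 77.4 and 82.0 CPM in ABL. The others, Fos among them, did not pass: Fos was lower in both ABL libraries with a log2 fold change of -0.80 (SE 0.53, edgeR adjusted p = 0.71). In CONT1, ABL1, CONT2 and ABL2, empty droplets held 170, 134, 321 and 232 CPM of Atf3. Of Hspa1b they held 110, 59.15, 344 and 98.6 CPM. Both were above the chosen cells in all libraries but CONT1. The part of free RNA in the falls of Atf3 and Hspa1b was not tested beyond the subtractions described above. The 2 Hsp70 promoters are shown because these copies moved together. Each is the 150 bases up to the annotated start (RefSeq, GRCm38.p6, minus strand, Hspa1a at chr17:34972157-34972306 and Hspa1b at chr17:34959239-34959388), and 149 of 150 bases are identical. Capitals mark the heat shock element core GAANNTTC, which reads the same on both strands, begins 104 bases before the start and is found in 3.95% of 32851 promoter windows of that length. These letters were not found in the windows of Hsph1 and Dnajb1. A match is a description of the letters only.
Hspa1a: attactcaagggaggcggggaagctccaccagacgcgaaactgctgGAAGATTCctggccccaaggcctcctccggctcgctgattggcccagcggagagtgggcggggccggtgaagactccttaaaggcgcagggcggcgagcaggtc
Hspa1b: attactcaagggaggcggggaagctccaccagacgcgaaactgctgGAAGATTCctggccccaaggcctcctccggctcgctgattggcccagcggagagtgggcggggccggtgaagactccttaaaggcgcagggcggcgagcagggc

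The remaining named falls were Angptl1, Abca8a, Col6a5, Csmd1, Fmo2, AW112010 and P3h2, all with both ABL libraries below both CONT libraries. Angptl1, an angiopoietin-like secreted protein, was at 59.6 and 154 CPM in CONT and at 20.2 and 16.6 CPM in ABL, and fell by 2.43 on the log2 scale (SE 0.34, edgeR adjusted p = 0.0014). Col6a5, a collagen VI chain, was at 259 and 611 CPM in CONT and 144 and 146 CPM in ABL. Angpt4, an angiopoietin, was on the contrary among the named rises, at 19.4 and 21.7 CPM in CONT and 90.1 and 90.3 CPM in ABL, above empty droplets (45.9 and 5.44 CPM). Tpm2, Alpl and Lgals1, for a tropomyosin, the alkaline phosphatase and galectin-1, completed the named rises, and 1 cell held 31% of the Lgals1 UMIs of ABL2. The larger subtraction of free RNA left 60 of 332 Lgals1 UMIs and 48 of 156 Mmp2 UMIs in ABL2, and the call for Lgals1 was lost (log2 fold change 1.20, edgeR adjusted p = 0.051). In the cells with a Y-linked and no Xist UMI, the calls for Col3a1, Thbs2, Angpt4, Lgals1, Angptl1, Abca8a, Csmd1, Ifitm1, AW112010, P3h2, Mgp, Timp1, Mest, Id1 and Smad6 were lost as well, while Fn1, Olfml3, Col1a1, Hspa1a and Hspa1b passed. For all 23 named genes the 2 conditions did not overlap, which in CPM also held for 17.5% of tested genes upward and 8.71% downward, against the 0.753% and 0.251% called.

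Niche factors and adipogenic genes gave no call by edgeR. Of 12 niche factors tested, 2 had an unadjusted p under 0.05 and DESeq2 called 1. Vcam1, an adhesion molecule that holds hematopoietic cells, was at 1395 and 1446 CPM in CONT and 741 and 1146 CPM in ABL, with a log2 fold change of -0.72 (SE 0.45, edgeR adjusted p = 0.68). Kitl had a log2 fold change of -0.42 (SE 0.43, edgeR adjusted p = 0.85), and its groups overlapped. Lepr was lower in both ABL libraries, with a log2 fold change of -1.29 (SE 0.46, edgeR adjusted p = 0.32), which did not pass. Of 15 adipogenic genes, 3 had an unadjusted p under 0.05 and DESeq2 called 1. Pparg, the master factor of adipocytes, was at 44.3 and 54.7 CPM in CONT and 46.2 and 52.5 CPM in ABL. None of 15 cell cycle genes passed, with 0 at an unadjusted p under 0.05 and 0 called by DESeq2. Secretory pathway genes (18 tested, 2 at an unadjusted p under 0.05, 0 by DESeq2), glycolysis genes (16 tested, 0 and 0), complement genes (15 tested, 2 and 0) and cyclin-dependent brakes (12 tested, 1 and 0) also gave no edgeR call. The IGF and osteoclast list gave 1 higher of 10 (beside 0.753% of all genes), Igfbp2, at 3.46 and 1.18 CPM in CONT and 8.09 and 27.6 CPM in ABL, from 7 and 11 CONT cells and 7 and 5 ABL cells. Il6 was the 1 call among 13 inflammatory genes tested (beside 0.251% of all genes lower), lower in ABL at 14.4 and 38.7 CPM against 40.5 and 81.9 CPM.

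The chosen cells were not uniform among themselves. After thinning each cell to 2700 UMIs, genes were ranked in each library by variance over mean, and the 10 with the best worst rank over the 4 libraries, out of 2777 genes, were Malat1, Mt1, Igfbp5, Fos, Hspa1a, Cxcl9, Hspb1, Tmsb4x, Ibsp and Jun. Fos had a median of 4 UMIs per cell in CONT1, 3 in ABL1, 5 in CONT2 and 1 in ABL2. It was at 0 in 19%, 24.3%, 26.3% and 36.4% of cells, while the 10% of cells with most Fos held 38.3% to 42.8% of its UMIs. Fos and Jun, whose proteins pair in the AP-1 complex, varied together over cells, with Spearman's rho of 0.62, 0.53, 0.69 and 0.60 in CONT1, ABL1, CONT2 and ABL2 (568, 235, 1055 and 140 cells that share a library and a depth). The correlation is a description.

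**Figure D3:**
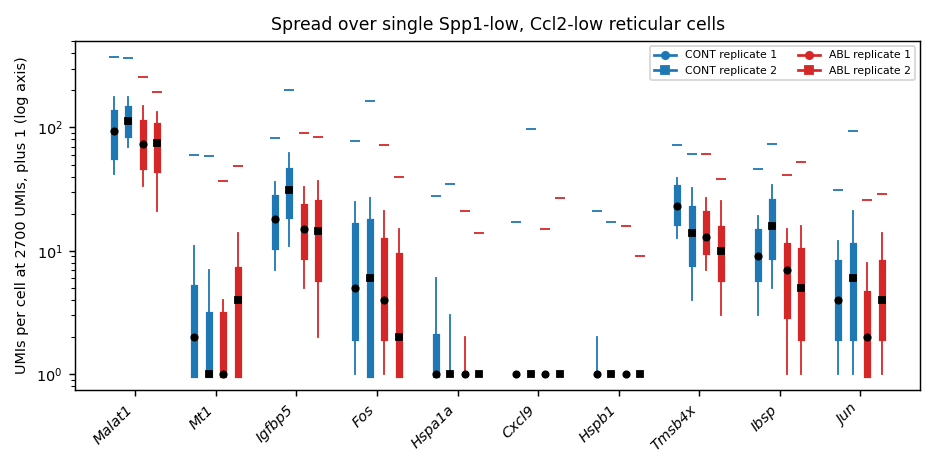
Spread over single cells of the 10 genes that ranked high in variance over mean in all 4 libraries (by their worst rank), as UMIs per cell after thinning to 2700 UMIs, plus 1 (log axis); thick bars span the quartiles, thin lines the first to the ninth decile, black symbols are medians and ticks the highest cell. Fos reaches from 0 to 162 UMIs in CONT2, while Cxcl9 has a median of 0 in all 4 libraries.

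Cxcl9, an interferon-induced chemokine, was carried by few cells. It was at 0 in 93.1%, 96.6%, 92.6% and 90.7% of the thinned cells, and 1 cell of CONT2 had 96 UMIs. Hspa1a was at 0 in 66.9%, 83.8%, 79.7% and 90.7% of cells, so that the lower ABL sum came with fewer cells with a UMI. Empty droplets held 337, 254, 462 and 127 CPM of Hspa1a, above the chosen cells in all libraries but CONT1. The part of free RNA in these shares was not tested. Igfbp5, by contrast, was found in nearly every cell, with medians of 17, 14, 30 and 13.5 UMIs, and was at 0 in 9 cells of ABL2 and in at most 3 cells of each other library. Ibsp, a bone matrix sialoprotein, had medians of 8, 6, 15 and 4 UMIs.

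Reticular cells that passed the same gates but carried more Ccl2 and Ccl7 (1145 cells, namely 471, 89, 543 and 42 in CONT1, ABL1, CONT2 and ABL2) were compared with the chosen cells of the same library. The classes were divided on these chemokines in the same cells, so the comparison describes what was counted alongside them. Of 10667 genes, 315 (2.95%) were lower and 70 (0.656%) higher in the chosen cells by edgeR with the library as block. The lower ones included Cxcl10, Il6, Cxcl1, Rab20, Vdr, Jak2 and Ifrd1. Among inflammatory chemokines and cytokines 9 of 14 tested were lower and 0 higher, with a median log2 difference of -0.59 against 0.01 over all genes.

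Cxcl1, a chemokine that attracts neutrophils, was at 382, 172, 258 and 244 CPM in the chosen cells of CONT1, ABL1, CONT2 and ABL2, and at 872, 565, 613 and 497 CPM in the chemokine-high cells. It was lower by 1.33 on the log2 scale (log2 difference -1.33, SE 0.08, edgeR adjusted p = 6.2e-10) and lower in all 4 libraries. Thinned to equal depth, 36.1%, 21.3%, 25.2% and 28.6% of the chosen cells still had a Cxcl1 UMI, against 6.64%, 1.97%, 2.04% and 4.19% of hematopoietic cells. Empty droplets held 387, 230, 514 and 208 CPM of Cxcl1, above the chosen cells in all libraries but ABL2, and the part of free RNA in this difference was not tested. Il6, an inflammatory cytokine, was at 40.5, 14.4, 81.9 and 38.7 CPM against 124, 49.2, 184 and 83.9 CPM (log2 difference -1.36, SE 0.10, edgeR adjusted p = 1.1e-08). Nfkbia, which codes for an inhibitor of NF-κB, was lower too (log2 difference -0.61), as were Tnfaip3 (-0.86) and Nfkbie (-0.82), both named after their values were seen.

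The promoter of Cxcl1 is shown because this gene had the lowest adjusted p among the named differences. It covers the 150 bases up to the annotated start (RefSeq, GRCm38.p6, chr5:90891095-90891244, plus strand). Capitals mark GGAATTTCC, an exact spelling of an NF-κB site, searched on both strands. It begins 70 bases before the start and is found in 0.189% of 32851 promoter windows of that length. These letters were not found in the windows of Il6, Cxcl10, Ptx3 and Nfkbie, and were found in 1 of the 2 windows of Tnfaip3. Other spellings of the site were not searched, so a match or its absence describes these letters only.
Cxcl1: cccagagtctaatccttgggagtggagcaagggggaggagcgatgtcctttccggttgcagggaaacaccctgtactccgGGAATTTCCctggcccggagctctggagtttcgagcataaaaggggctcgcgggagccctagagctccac

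Genes higher in the chosen cells than in the chemokine-high cells differed less. Txnip, an inhibitor of thioredoxin and of glucose uptake, led them at 107, 67.0, 143 and 82.0 CPM against 52.2, 31.5, 84.8 and 41.9 CPM (log2 difference 0.83, SE 0.09, edgeR adjusted p = 4.1e-06). Hsph1, a heat shock cochaperone, was at 86.2, 51.4, 153 and 73.7 CPM against 51.0, 34.2, 97.0 and 38.9 CPM. Gadd45g and Gadd45a, growth arrest and DNA damage genes, were higher by 0.62 and 0.49 on the log2 scale. Chil3, G0s2 and Ngp were also named, higher by 0.58, 0.57 and 0.56. Ngp is one of the 17 hematopoietic markers. In CONT1, 1 cell held 17.1% of the Chil3 and 13.7% of the Ngp UMIs of the chosen cells. The chosen cells of CONT2 and ABL2 held 54 and 3 UMIs of Chil3 and 133 and 11 of Ngp. Immediate early and stress genes went both ways, with 4 of 22 higher (Fos, Jun, Hspa1b and Hsph1) and 6 lower (Fosb, Jund, Ier3, Nr4a1, Btg2 and Hspa8). Hematopoietic markers were higher in 6 of 17 and lower in 3, beside 0.656% and 2.95% of all genes. S100a8, one of the named genes, was at 422 CPM against 21 CPM in ABL2, where 1 cell held 91.7% of it, and its sign turned when both limits were halved (log2 difference -0.65). Markers of free blood cell RNA thus moved with this comparison, and their part in it was not tested.

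**Figure D4:**
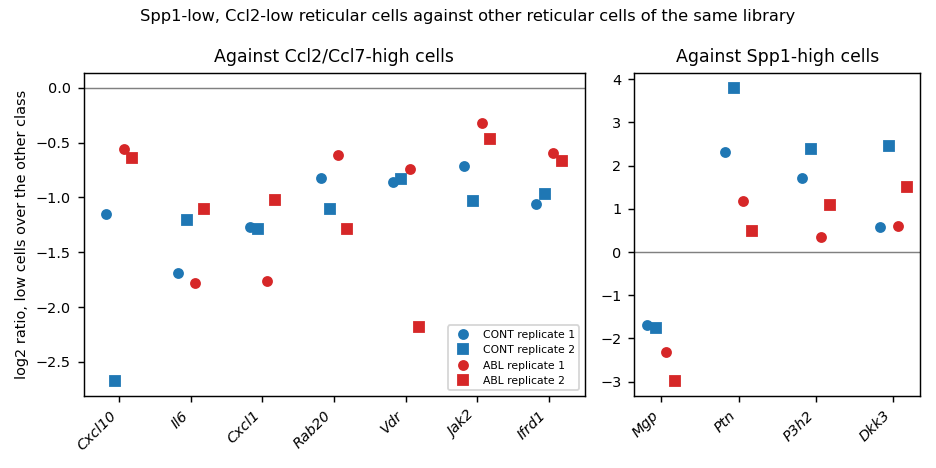
Log2 ratio of the chosen cells over chemokine-high cells (left) and over Spp1-high cells (right) in each library; circles are replicate 1, squares replicate 2, blue CONT and red ABL. All points on the left are below 0, Mgp is below 0 and Ptn, P3h2 and Dkk3 are above 0 in the 4 libraries.

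Reticular cells with Spp1 at or above 0.2% were few (142 cells, namely 15, 17, 36 and 74 in CONT1, ABL1, CONT2 and ABL2). Against them 20 of 8597 genes (0.233%) were higher and 4 (0.0465%) lower in the chosen cells. Of the called genes 1 was sex-linked. Xist was at 619, 924, 942 and 0 CPM in the chosen cells and at 620, 367, 94.3 and 0 CPM in Spp1-high cells. The classes thus differed in Xist within ABL1 and CONT2, and its part in this comparison and in the interaction below was not tested. Mgp, an inhibitor of mineralisation, had the lowest fitted log2 difference of the named genes. It was at 148, 411, 55.9 and 144 CPM in the chosen cells of CONT1, ABL1, CONT2 and ABL2, and at 583, 2420, 202 and 1186 CPM in Spp1-high cells (log2 difference -2.32, SE 0.17, edgeR adjusted p = 2.7e-09). The other genes lower were the cytokines Il6 and Lif and the enzyme Gcnt2. Spp1-high cells had no limit on Ccl2 and Ccl7, unlike the chosen cells. They held Ccl2 at 1009, 716.5, 1937 and 435 CPM, against 78.9, 59.5, 67.9 and 45.1 CPM in the chosen cells. The part of that limit in the cytokine differences was not tested. Ptn, the heparin-binding growth factor pleiotrophin, was higher, at 763, 647, 614 and 92.1 CPM against 185, 332, 46.0 and 67.9 CPM (log2 difference 1.83, SE 0.30, edgeR adjusted p = 0.0026). P3h2, a collagen prolyl hydroxylase, and Dkk3, a secreted member of the Dickkopf family, were higher in all 4 libraries by 1.47 and 1.29 on the log2 scale. The other named genes were Hba-a1, Hbb-bt, Hbb-bs, S100a8 and S100a9, which are blood cell transcripts. Igfbp5, Prelp, C4b and Col6a5, all named after their values were seen, were higher too, Igfbp5 by 0.84. With 1 replicate alone, 0 genes were called higher, so the count needs both.

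Whether injury changed the chosen cells and the Spp1-high cells unequally was tested by an interaction term over the same 8597 genes. The difference was more positive in the chosen cells for 9 genes (0.105%) and more negative for 8 (0.0931%). Ibsp was at 5998 and 10110 CPM in CONT and at 1512 and 1380 CPM in ABL among Spp1-high cells, while among the chosen cells it was at 3470 and 6498 CPM in CONT and 2493 and 2235 CPM in ABL. The log2 changes differed by 1.41 (SE 0.21, edgeR adjusted p = 4.4e-05). For Hspa1a the difference was 2.14 (SE 0.46, edgeR adjusted p = 0.013), with 315 and 736 CPM in CONT and 43.7 and 38.8 CPM in ABL among Spp1-high cells. Cxcl1 differed in the same direction, by 1.38, Serpina3n, an acute-phase protease inhibitor, by 2.18 and Socs1, an inhibitor of cytokine signalling, by 3.31, the last 2 named after their values were seen. Serpina3n and Socs1 had 0 UMIs in the Spp1-high cells of ABL1, so their fitted sizes depend on the prior count and are no bound. The rule limited Ccl2 and Ccl7 in the chosen cells but not in Spp1-high cells. Among Spp1-high cells Ccl2 was at 1009 and 1937 CPM in CONT and 716.5 and 435 CPM in ABL. The part of that limit in the inflammatory differences was not tested. Of the 8 more negative genes 4 were hemoglobin chains, Hba-a1 (-2.09), Hbb-bt (-1.94), Hbb-bs (-1.88) and Hba-a2 (-1.81), with edgeR adjusted p from 1.4e-06 to 0.00018, so blood cell RNA moved with this test and its part in the other differences was not tested. Ptn differed by -2.25, and Mmp9, Kcnq1ot1 and H19 were the others. The Spp1-high class holds few cells in both CONT libraries (15 and 36) and in ABL1 (17), which limits these differences.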

How the data were processed

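The authors deposited raw UMI counts per gene and barcode, made with Cell Ranger (version 3.0.0 in the header of the replicate 2 files) on mm10 with reporter sequences added. Barcodes were taken as cells with the study's filters (v2: 500 genes or more, 20% mitochondrial UMIs or less; v3: 1000 and 15%) and a floor of 2700 (v2) or 4000 (v3) UMIs. Cells of a class were summed per library. The members, the 25 gene lists and the tests were chosen with earlier results of these data known, so counts within lists are no independent evidence. Sums were tested with edgeR 4.0.16 (R 4.3.3, quasi-likelihood, TMM, filterByExpr, Benjamini-Hochberg, threshold 0.05). ABL was compared with CONT with the replicate as block, since the study took the contralateral femurs of operated mice as control and compared within replicates. The Xist counts of replicate 2 go against a pairing by animal there. Deviations of same-numbered libraries correlated at 0.658 over 10365 genes, which includes the shared chemistry. Classes were compared with the library as block, and the interaction on the same sums. Counts leave out the 9 rule genes. The scripts were tested on simulated data. Standard errors are the log2 fold change over the root of the F statistic.

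Genes were named by rule: the 12 largest rises and falls (8 in class comparisons) past the threshold, in the same direction in every replicate or library and at 50 CPM or more on average, without rule genes and Xist, Tsix, Ddx3y, Eif2s3y, Kdm5d and Uty (11 falls qualified), the 10 genes with the best worst rank in variance over mean over the 4 libraries, the 10 most abundant, and list genes. In the comparison with chemokine-high cells, 1 gene that this rule names is not reported here. Levels are counts per 1000000 UMIs (CPM) of the summed cells, counted at the 3′ end and so not scaled by length. Free RNA was taken from barcodes with at most 300 UMIs. Scrublet in scanpy 1.11.5 marked 76, 17, 1 and 14 cells as doublets in CONT replicate 1, ABL replicate 1, CONT replicate 2 and ABL replicate 2, too few in CONT replicate 2 to have worked, and none were removed. The 6 Schwann cell markers summed to at most 216 CPM, reached in the chosen cells of CONT replicate 1. Alternatives are given in the closing section. Coordinates of genes are GENCODE M21 on GRCm38, and promoter sequences RefSeq.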

Additional observations from a re-analysis of the deposited data

Results flagged for a closer look

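The ABL against CONT log2 change differed between Spp1-low, Ccl2-low and Spp1-high reticular cells, by the interaction test, for 17 genes. It was more positive in the former by 1.38 for Cxcl1, 1.41 for Ibsp, 1.79 for Slc26a7, 1.86 for Cldn10, 2.14 for Hspa1a, 2.18 for Serpina3n, 2.25 for Gem, 2.57 for Serpina3c and 3.31 for Socs1. Serpina3n, Gem and Socs1 had 0 UMIs in the Spp1-high cells of ABL replicate 1, so their sizes depend on the prior count. It was more negative for Ptn (-2.25), Mmp9 (-2.20), Kcnq1ot1 (-1.90) and the hemoglobin chains Hba-a1 (-2.09), Hbb-bt (-1.94), Hbb-bs (-1.88) and Hba-a2 (-1.81). For H19 the fitted difference was -8.94, but both CONT sums of Spp1-high cells held 0 H19 UMIs, so this size depends on the prior count of the fit and is no bound. Spp1-high cells had no limit on Ccl2 and Ccl7, and the part of this in the differences was not tested.

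Recombinase transcripts outside the main measurement were above the limit of 3 counts. iCreER was counted 470 times in the chosen cells, at 32.5 and 25.3 CPM in CONT and 13.9 and 7.37 CPM in ABL (replicates 1 and 2), and at 0.39 CPM or less in hematopoietic cells. It was lower in ABL, with an edgeR adjusted p of 0.021 for iCreER_trans. A second sequence, CreER-WPRE, which the labels do not name, was counted 44 times, at 7.96 CPM in CONT replicate 1 and 11 CPM in ABL replicate 1 but 0.15 CPM in CONT replicate 2 and 0 in ABL replicate 2.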

How the results depend on the processing

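The replicate block decided the ABL against CONT calls. Without the block, which pairs libraries by replicate, 0 genes were called higher and 0 lower by edgeR (225 at an unadjusted p under 0.05), against 78 and 26 with it. No ABL against CONT fit was possible without a replicate, since 1 library per group leaves no residual degree of freedom. The class comparisons and the interaction carry the library or the replicate in their design.

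For ABL against CONT, higher and lower genes numbered 189 and 64 without TMM, 135 and 82 without the filter on low counts, 45 and 13 with DESeq2, 140 and 98 with the rule applied after thinning, 177 and 148 with both limits doubled, 136 and 94 in cells with a tdTomato UMI, 131 and 81 with doublets left out, and 27 and 11 in cells with a Y-linked and no Xist UMI, where 78 of the 104 genes could be fitted, 30 were called again and 1 changed sign. With both limits halved 64 were lower. With free RNA subtracted 40 were lower, 55 of the 78 and 24 of the 26 were called again, and the log2 fold change was -0.87 for Col1a1, -0.39 for Col6a3 and -0.34 for Mgp. With free RNA subtracted at its limit, 168 were higher and 113 lower. That setting and the one leaving out Gm42418 (75 and 22) were chosen after seeing the data. The cause of these shifts was not tested.

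Against Spp1-high cells, higher and lower genes numbered 12 (higher, without TMM), 50 and 12 without the filter, 8 and 1 with DESeq2, and without 1 replicate 0 higher and 0 to 1 lower. Against chemokine-high cells, 114 were higher without TMM and 128 without the filter, 8 were higher and 127 lower with DESeq2, and without 1 replicate 16 were higher in either case and 60 to 86 lower. With limits halved, the log2 difference of S100a8 was -0.65. DESeq2 gave 1 more positive and 3 more negative genes for the interaction. The mean share of gated cells was 59.2% in CONT and 61.8% in ABL, 46.6% and 42.8% with limits halved, and 70.7% and 76.9% with limits doubled, where replicate 2 changed direction (75.1% in CONT, 76.2% in ABL). The 140 cells of ABL replicate 2, the 15 Spp1-high cells of CONT replicate 1 and the 17 of ABL replicate 1 set the precision.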
